A study of Mus musculus with 2 samples.

Results

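The type I interferon response genes were followed as 45 listed genes, chosen by symbol for their roles in this response. A row was matched for 44 of them among 31053 genes, and Mx2 had no matched row. Raw UMI counts (molecules counted once each) were read in cells with at least 2500 UMIs, at least 500 genes and at most 10% mitochondrial UMIs, for each gene and as a sum per cell.

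The study sequenced single bone marrow cells of wild-type C57BL/6J mice labelled as hematopoietic stem cells (HSCs) in 2 droplet libraries. The naive library came from untreated mice. The Listeria library came from mice 6 weeks after they were challenged with the bacterium Listeria monocytogenes. Both libraries carry an age of 6 to 8 weeks, without saying whether this is the age at challenge or at harvest, and the labels name neither the sort markers nor the number of animals. The Listeria library was deposited under a name that marks a knockout, while its labels give wild type. With 1 library per group every comparison is between these libraries and not between the conditions, no test was possible, and each interval (95%) covers counting error only.

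The naive library held 6375 kept cells with a median of 6972 UMIs, and the Listeria library 4839 with a median of 7239, and 14 kept barcodes occurred in both. Cells were sorted into gates by how many genes of a marker list had a UMI. No marker is one of the 44 genes. The HSC gate needed 4 of 12 genes such as Procr, Mecom and Hlf and held 1834 naive cells (28.8%) and 1729 Listeria cells (35.7%). B cells were 21.2% of the naive and 7.98% of the Listeria cells, so both libraries labelled as HSCs held many cells of other types. The gate on lymphoid priming genes (Flt3, Dntt, Il7r and others) was led in both libraries by T-lineage genes such as Trbc1 and Bcl11b and is named here only by its rule.

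Type I interferons bind the receptor Ifnar1 and Ifnar2, whose kinases Jak1 and Tyk2 activate the factor ISGF3. This factor includes Stat2 and Irf9 and binds interferon-stimulated response elements (ISREs) near its target genes. The targets include sensors of viral RNA and DNA, effectors that block viral translation or budding, and Usp18, which shuts the receptor off; in HSCs the response is known for driving dormant cells into division.

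The sequences near the starts of 7 of these genes, and of Rsad2, which is not among the 44 but is used below to split cells, are printed to show where the element lies. They are from RefSeq on GRCm38.p6, in the gene's own 5′ to 3′ direction, with capitals at matches on either strand to the core of the element, taken as GAAA, any 2 bases and GAAA (read as TTTC, 2 bases and TTTC on the other strand). Isg15 (chr4:156200819-156201018, minus strand), Ifit1 (chr19:34640689-34640888, plus), Ifit3 (chr19:34583329-34583528, plus), Oas1a (chr5:120907526-120907725, minus), Bst2 (chr8:71537473-71537672, minus), Oasl1 (chr5:114923040-114923239, plus) and Rsad2 (chr12:26456453-26456652, minus) are each given as the 200 bases before the start site. For Ifih1 the 30 bases that hold its match lie just after the start site (chr2:62646206-62646235, minus). Isg15, Ifit1, Oasl1 and Ifih1 are shown because they were high together in a small set of HSC-gated cells, and Oas1a and Bst2 because they were not; Ifit3, from the same cluster as Ifit1, had too few UMIs there to be placed on either side.
Isg15: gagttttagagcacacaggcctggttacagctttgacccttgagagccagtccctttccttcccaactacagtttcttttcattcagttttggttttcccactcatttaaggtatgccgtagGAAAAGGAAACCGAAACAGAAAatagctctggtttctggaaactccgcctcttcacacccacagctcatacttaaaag
Ifit1: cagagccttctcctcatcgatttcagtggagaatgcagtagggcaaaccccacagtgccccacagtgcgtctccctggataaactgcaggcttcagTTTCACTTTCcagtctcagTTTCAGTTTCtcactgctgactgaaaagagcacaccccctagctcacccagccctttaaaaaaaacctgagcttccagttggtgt
Oasl1: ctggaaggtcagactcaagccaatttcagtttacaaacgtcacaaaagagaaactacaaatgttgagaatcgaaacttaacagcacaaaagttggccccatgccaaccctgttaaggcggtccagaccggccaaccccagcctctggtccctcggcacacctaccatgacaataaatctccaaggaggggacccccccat
Ifih1: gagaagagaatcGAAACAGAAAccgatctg
Rsad2: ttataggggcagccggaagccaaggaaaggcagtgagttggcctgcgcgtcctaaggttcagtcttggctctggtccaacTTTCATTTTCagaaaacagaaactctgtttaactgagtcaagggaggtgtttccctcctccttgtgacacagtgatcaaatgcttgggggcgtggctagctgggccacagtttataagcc
Ifit3: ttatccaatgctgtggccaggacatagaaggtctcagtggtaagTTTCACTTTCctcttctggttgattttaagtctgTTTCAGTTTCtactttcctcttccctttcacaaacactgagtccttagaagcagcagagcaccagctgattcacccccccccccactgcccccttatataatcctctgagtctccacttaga
Oas1a: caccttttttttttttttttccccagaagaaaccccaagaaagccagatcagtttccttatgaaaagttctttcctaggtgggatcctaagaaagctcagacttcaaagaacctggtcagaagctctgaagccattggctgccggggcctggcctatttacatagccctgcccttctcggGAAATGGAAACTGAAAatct
Bst2: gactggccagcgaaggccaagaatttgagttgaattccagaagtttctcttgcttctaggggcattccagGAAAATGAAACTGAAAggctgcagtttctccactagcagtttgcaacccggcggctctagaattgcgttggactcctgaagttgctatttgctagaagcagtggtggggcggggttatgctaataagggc
In Isg15 3 overlapping matches ran from 78 bases before the start. Ifit1 and Ifit3 each held 2 separate matches, and Oas1a and Bst2 2 overlapping ones. Oasl1 held none in its window. Of the 33 genes with a promoter window of 300 bases, 17 (51.5%) held the motif, against 3.99% of all 27025 genes in that table and 3.44% of its 32851 windows of the same length. The gamma-activated motif, taken as TTC, any 3 bases and GAA, was in 6 of the 33 (18.2%), against 9.55% of all genes. A match describes letters and is not evidence of binding.

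Summed over all kept cells, the 44 genes took 1153 CPM (UMIs scaled to a total of 1e+06) of naive UMIs (interval 1144 to 1163) and 1067 CPM of Listeria UMIs (1057 to 1077). The log2 ratio of the Listeria over the naive library was −0.11 (−0.13 to −0.09). In the HSC gate the order was turned, with 1237 CPM for naive and 1283 CPM for Listeria cells and a log2 ratio of 0.05 (0.02 to 0.08). That value became −0.046 when libraries were scaled by edgeR's TMM factors, so its direction depends on the scaling.

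The sum spread more widely between gates than between libraries. In plasma cells, the lowest of the 9 gates plotted, it was 550 CPM (naive) and 563 CPM (Listeria). The megakaryocyte lineage lay at 832 and 730. B cells lay at 1054 and 907, multipotent progenitors at 1190 and 1040, and the lymphoid priming gate at 1300 and 1259. T or NK cells lay at 1623 and 1365. The dendritic and antigen-presenting gate was the highest in both libraries at 2553 and 2200. Its markers include those of plasmacytoid dendritic cells, the professional producers of type I interferon. The genes that led it in both libraries were others, namely H2-Aa, H2-Eb1, Cd74, H2-Ab1 and Cst3. Neutrophils lay at 1825 and 2117, but Slfn2, of the Schlafen family of growth regulators, made up 58.1% and 73.7% of this. Without Slfn2 the neutrophil sums were 764 and 557, below those of the megakaryocyte lineage. The erythroid gate, with 23 cells in each library, was at 619 and 685, and the myeloid progenitor gate, with 23 and 35, at 890 and 646; these are not described further.

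**Figure D1:**
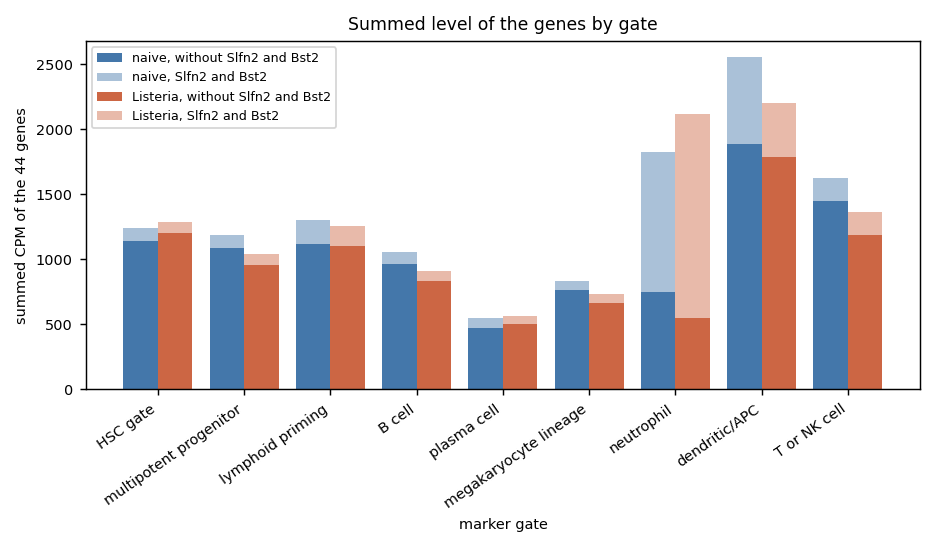
Summed CPM of the 44 genes (vertical axis) by marker gate (horizontal axis) in the naive (blue) and Listeria (orange) libraries, with the pale upper part of each bar showing Slfn2 and Bst2. The dendritic and neutrophil gates stand highest, and most of the neutrophil bar is Slfn2. The Listeria plasma cell and dendritic bars rest on 29 and 42 cells.

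The 4 genes with the most UMIs were Ifi203, Mndal, Bst2 and Ifi27. Ifi203 and Mndal, of a family of nuclear DNA-binding proteins, were at 144 and 137 CPM in all naive cells and at 117 and 113 in all Listeria cells. Their gene spans overlap on the same strand of chromosome 1 (Mndal at 173849126-173942491, Ifi203 at 173920407-173942672), and the effect of this on their counts was not tested. Of the 50-base words at the end of Mndal transcripts 22.0% also occur in Ifi205, so the counts of Mndal are uncertain. For Ifi203 0% of such words occur in another gene. Both were found in every large gate. UMI levels were not divided by transcript length, since this assay counts transcript ends.

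Several genes were high in particular gates. Slfn2 reached 1061 CPM in naive and 1560 CPM in Listeria neutrophils (981 to 1146 and 1450 to 1676), against 11.7 and 8.69 in the HSC gate. It was therefore the gene of the set most tied to 1 cell type in both libraries, and the only one that met the rule of 4 times the level of all kept cells in a gate of at least 50 cells in each library. Bst2, the tetherin that holds budding virions on the cell, was at 611 CPM in naive and 339 CPM in Listeria dendritic cells, against 86.6 and 75.6 in the HSC gate. The Listeria value is lower with no overlap of the counting intervals (558 to 668 and 286 to 400), but it rests on 42 cells, 1 of which held 15.6% of the Bst2 UMIs. Ifi27l2a, a small mitochondrial protein, was at 155 CPM in naive and 105 CPM in Listeria B cells and at 199 and 86.6 CPM in the dendritic gate, against 6.24 and 6.59 in the HSC gate.

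Smaller gates held further concentrations. Isg20, an exonuclease that degrades viral RNA, was at 37.2 CPM in naive plasma cells and at 83.4 CPM in Listeria plasma cells (70 and 29 cells). Zbp1, a sensor of Z-form nucleic acid, was at 39.5 and 40.7 CPM in the same cells, against 6.38 and 4.12 in the HSC gate. Phf11b was at 67.5 and 45.7 CPM, and Mx1, a GTPase that traps viral particles, at 29.3 and 24.1 CPM in the dendritic gate. Mx1 was almost missing elsewhere, at 1.09 and 0.82 CPM in the HSC gate. Phf11b shares 42.6% of the words at its transcript end with Phf11c, so its counts are uncertain.

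T or NK cells differed between the libraries in the IFIT genes, which bind foreign RNA and block its translation. In the naive library Ifit1, Ifit2 and Ifit3 were at 40.5, 53.1 and 19.0 CPM over 135 cells. In the Listeria library Ifit2 was at 13.4 CPM over 73 cells, and Ifit1 and Ifit3 had 0 UMIs, each with an upper bound of 9.89 CPM. A single naive cell held 60.0% of the Ifit3 and 31.3% of the Ifit1 UMIs of that gate. Ifit3 shares 14.9% of the words at its transcript end with Ifit3b, which had 18 naive and 6 Listeria UMIs.

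**Figure D2:**
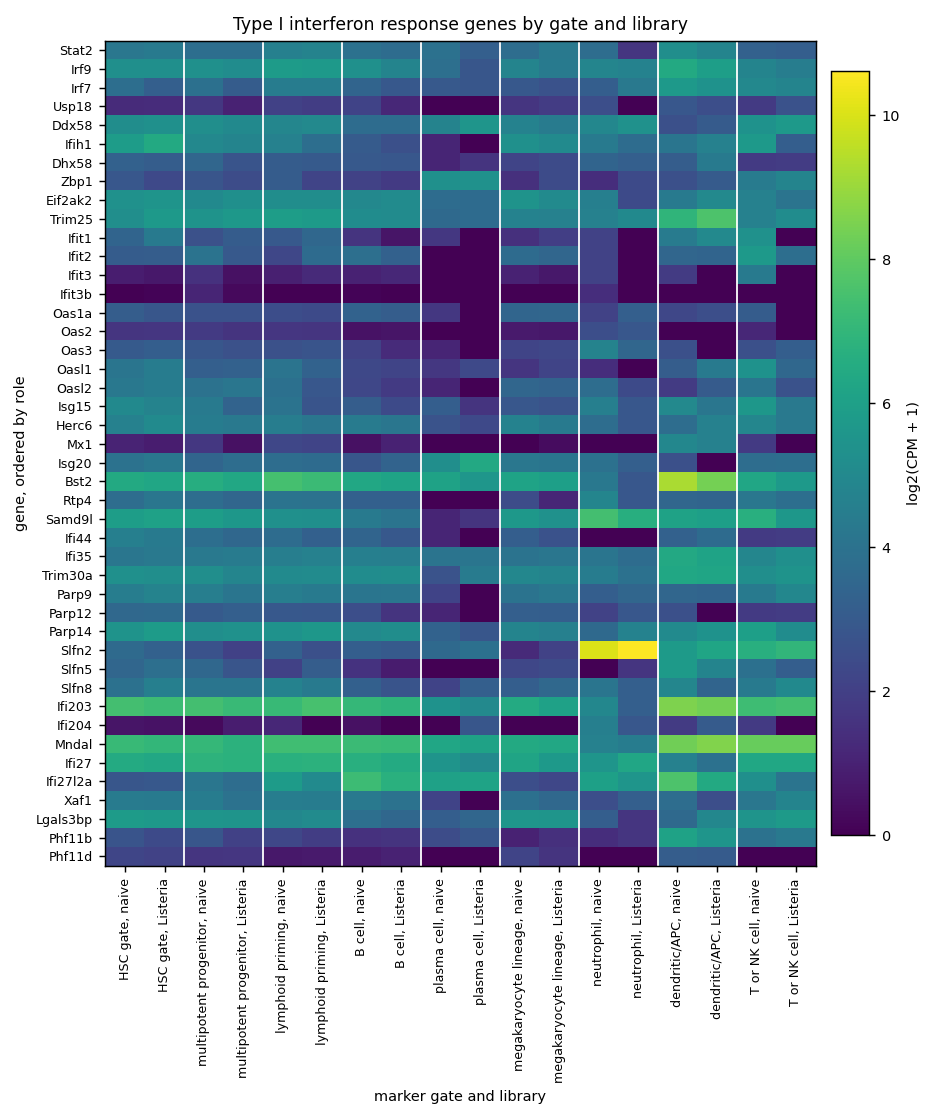
Level of each of the 44 genes (rows, ordered by role) in 9 marker gates of both libraries (columns), as log2 of CPM plus 1 from dark (0) to bright. Slfn2 in neutrophils, Bst2 in the dendritic gate and Ifi27l2a in B cells and the dendritic gate stand out, while Ifi203 and Mndal are bright in most gates.

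Gene by gene, 30 of the 44 had at least 10 CPM in a library and 20 UMIs over both in all kept cells, and 30 did in the HSC gate. Those with a log2 ratio past 0.32, up or down, were counted as higher or lower. In all kept cells 4 were higher and 5 lower in the Listeria library, which is 13.3% and 16.7% of the 30; among all genes that met the same minimum 15% were higher and 8.61% lower. In the HSC gate 9 were higher and 2 lower (30.0% and 6.67%), against 21.1% and 5.23% of all genes. With TMM factors the split was 2 higher and 7 lower in all kept cells (10.9% and 10.8% of all genes) and 5 higher and 3 lower in the HSC gate (11.9% and 9.32%). The median log2 ratio was 0.09 in all kept cells and 0.14 in the HSC gate, beside 0.07 and 0.12 over all genes. Both medians thus lay near those of all genes, and each share of the set rests on 2 to 9 genes.

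Among the ISGF3 factors and their feedback genes, Irf7 stood apart. Irf7, which drives transcription of the interferon genes, was at 13.2 (naive) and 8.39 (Listeria) CPM in the HSC gate, a log2 ratio of −0.65 (−1.01 to −0.31), with −0.62 in all kept cells. Stat2 and Irf9 were within that limit in both, with HSC gate values of 17.5 and 19.8 CPM for Stat2 and of 38 and 38.1 CPM for Irf9. Usp18 was at 1.45 and 1.57 CPM in the HSC gate, under the minimum.

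Of the nucleic acid sensors, Ifih1, which senses long double-stranded RNA, was the most clearly higher in the Listeria library. Its HSC gate levels were 56.8 (naive) and 86.6 (Listeria) CPM (52.9 to 60.9 and 81.7 to 91.8), a log2 ratio of 0.61 (0.48 to 0.74), with 0.68 in all kept cells. In the barcodes with 1 to 50 UMIs, which carry RNA outside cells, Ifih1 was at 16.8 (naive) and 51.6 (Listeria) CPM, beside 30.8 and 49.5 in all kept cells; after subtraction of this free RNA the HSC gate ratio was 0.57. Trim25, a ubiquitin ligase that acts with the sensor Ddx58, was at 36.5 and 50.9 CPM in the HSC gate, a log2 ratio of 0.48 (0.31 to 0.65). Ddx58, at 35.8 and 39.0 CPM, and the kinase Eif2ak2, at 40.4 and 44.5, were within that limit. Ifih1 was thus higher in the Listeria library while the related sensor Ddx58 was not past the limit; the difference between them was not tested.

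The IFIT genes did not move as 1 group. Ifit1 had HSC gate levels of 9.64 (naive) and 19.8 (Listeria) CPM, a log2 ratio of 1.04 (0.74 to 1.35), the highest of the 30 genes. Ifit2 was at 7.61 and 7.79 CPM there and lower in all kept cells, at 11.6 and 7.44 CPM (log2 −0.64, −0.85 to −0.44). Ifit3 had 11 and 8 UMIs in the HSC gate. These genes lie in 1 cluster on chromosome 19, and in the HSC gate Ifit1 alone met the minimum.

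The OAS genes make a messenger that activates an RNA-degrading enzyme. Oasl1, a member without that activity, was at 16.3 and 20.9 CPM in the HSC gate (log2 0.36, 0.10 to 0.62), and Oasl2 at 18.1 and 20.9 CPM. The Oasl1 ratio turned to −0.15 when the HSC gate was made stricter. Oas1a, Oas2 and Oas3 stayed under 10 CPM in both libraries, and 56.1% of the words at the Oas1a transcript end occur in Oas1g. Isg15, a ubiquitin-like protein, was at 32.1 and 25.8 CPM in the HSC gate (log2 −0.32, −0.53 to −0.11), while its ligase Herc6 was at 24.4 and 32.3 CPM (0.40, 0.19 to 0.61). Isg15 and the ligase were thus on opposite sides of 0.

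Among the remaining effectors in the HSC gate, Rtp4 was at 12.9 and 16.8 CPM (log2 0.38), and Parp14, an ADP-ribosyltransferase, at 42.8 and 55.3 CPM (0.37). The Schlafen genes Slfn8 and Slfn5 were at 14.7 and 22.6 CPM (0.62) and at 10.2 and 13.8 CPM (0.43), but Slfn2 was lower, at 11.7 and 8.69 CPM (−0.43, −0.78 to −0.07). Bst2, Ifi203, Mndal, Ifi27, Xaf1, Lgals3bp, Samd9l, Ifi44, Ifi35, Trim30a, Isg20, Parp9 and Parp12 were all within that limit there. The 4 most abundant genes were thus among those nearly level between the libraries in the HSC gate.

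**Figure D3:**
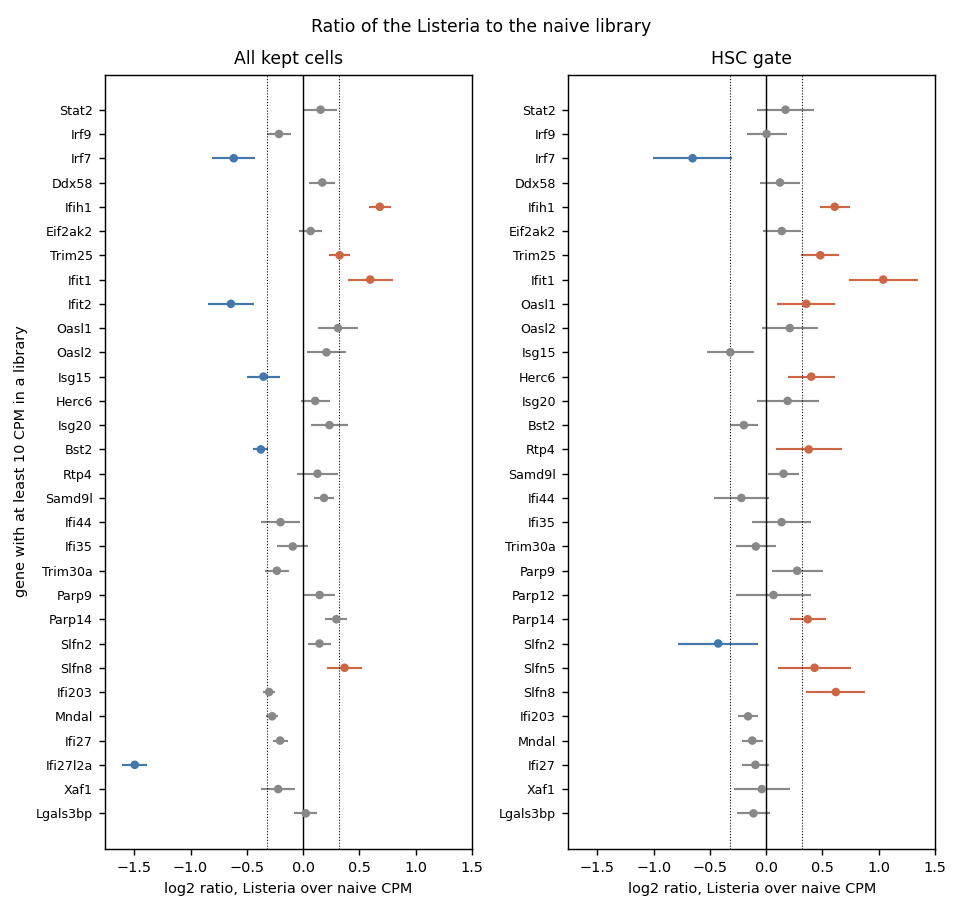
Log2 ratio of the Listeria over the naive library (horizontal axis) for the genes that met the minimum (rows, by role) in all kept cells (left) and the HSC gate (right), with counting intervals as bars; dotted lines mark ratios of 0.32 up and down, orange genes are higher, blue lower, grey within. Ifi27l2a at −1.50 is the lowest in all kept cells and is missing on the right, where it did not reach 10 CPM; Ifit1 at 1.04 is the highest in the HSC gate.

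The lowest ratio in all kept cells was that of Ifi27l2a, with 58.9 (naive) and 20.9 (Listeria) CPM (log2 −1.50, −1.61 to −1.38). In the HSC gate it was 6.24 and 6.59 CPM. The share of B cells, where it was high, moved with it. When each gate was given its naive share in both libraries, the ratio of Ifi27l2a was −0.63, that of Ifih1 0.32 and that of Ifit1 0.28, and 0 genes were higher and 5 lower (9.72% and 4.32% of all genes); the log2 ratio of the sum stayed at −0.11. Within B cells Ifi27l2a was still lower in the Listeria library (−0.57, −0.73 to −0.42). RNA in barcodes with 1 to 50 UMIs, far below the minimum for a cell, had Ifi27l2a at 78.7 (naive) and 22.4 (Listeria) CPM, close to the levels in cells, and its part in the low values of other gates was not tested.

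In each of the other large gates fewer genes were higher than lower in the Listeria library. The median log2 ratio of the set was −0.23 in multipotent progenitors and −0.03 in the lymphoid priming gate, beside 0.08 and 0.07 over all genes. It was −0.18 in B cells and −0.15 in the megakaryocyte lineage, beside 0.03 and 0.05. In multipotent progenitors 1 of 29 genes was higher and 9 lower, against 19.8% and 10% of all genes, with Isg15 at 19.5 and 9.38 CPM (log2 −1.06) and Ifit2 at 15.3 and 6.78 CPM (−1.18). In the lymphoid priming gate 3 of 29 were higher and 8 lower (24.9% and 15.3% of all genes), with Isg15 at 15.5 and 5.66 CPM (−1.45). In B cells 0 of 19 were higher and 4 lower (7.67% and 6.7%), with Irf9 at 39.4 and 26.3 CPM (−0.59). In the megakaryocyte lineage 2 of 23 were higher and 5 lower (16.8% and 11.3%), with Ifi27 at 72.7 and 51.7 CPM (−0.49). Isg15 was past the limit in the multipotent and lymphoid priming gates, and in the HSC gate it lay just inside it on the same side.

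Other genes of the pathway, 36 listed by role, gave context. No type I interferon gene was abundant: Ifnb1 had 21 naive and 1 Listeria UMIs, Ifna2 5 and 3, and Ifna4, Ifna5 and Ifne 0 in both. The receptor chains and kinases were within that limit in the HSC gate, with Ifnar1 at 40.0 and 37.4 CPM, Ifnar2 at 54.4 and 56.2, and Jak1 at 302 and 320. Of the 26 that met the minimum there, 6 were higher and 3 lower in the Listeria library, beside 21.1% and 5.23% of all genes. Among the higher ones were Rsad2, an enzyme that makes a chain-terminating nucleotide, at 58.7 and 167 CPM (log2 1.51), and the GTPases Gbp3, Igtp, Iigp1 and Ifi47 at 0.50 to 0.85. Those lower were Irf1 at −0.33, the membrane protein Ifitm1 at −0.65 and the signalling inhibitor Socs3 at −0.84.

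Some of the higher genes of the HSC gate were uneven from cell to cell. After every cell was thinned to 2500 UMIs, the variance of Ifit1 over its mean across HSC-gated cells was 1.66 for naive and 3.47 for Listeria cells, and that of Ifih1 was 1.44 and 3.19. The medians over the genes measured were 1.07 and 1.10, close to the value of 1 that random sampling gives. Oasl1 at 1.56 and 2.50 and Isg15 at 1.64 and 2.11 were the others well above it. Rsad2, outside the set, was at 5.39 and 14.3.

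Cells were therefore divided by Rsad2, a choice made after these values were seen. At least 3 thinned Rsad2 UMIs were found in 24 of 1834 naive HSC-gated cells (1.31%, 0.84% to 1.94%) and in 54 of 1729 Listeria cells (3.12%, 2.35% to 4.06%). Their median depth was 7244 naive and 6805 Listeria UMIs, beside 6865 and 7045 in the cells with 0 thinned Rsad2 UMIs. The depths were thus close. Here and below, cells with 0 are those with 0 UMIs after thinning. Before thinning those with 0 still held 203 naive and 202 Listeria Rsad2 UMIs. The levels given for this split and for that by Fos are from unthinned counts.

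In these cells the 44 genes summed to 2533 (naive) and 3552 (Listeria) CPM, against 1194 and 1181 in the cells with 0. The gain lay in few genes. Ifit1 was at 168 CPM against 5.31 in the naive library (31.7 times, 20.04 to 49.2) and at 360 against 7.33 in the Listeria library (49.1 times, 37.5 to 64.4). Oasl1 was 28.1 and 59.5 times higher, Isg15 13.6 and 22.7 times, and Ifih1, at 462 and 1010 CPM, 9.79 and 19.3 times. Rtp4 was 7.27 and 8.69 times and Slfn2 7.44 and 5.29 times higher. Samd9l, Herc6 and Oasl2 were between 2.19 and 2.89 times higher, which made 9 of 44 genes with an interval above 1 in both libraries. All 9 were among the 39 with at least 20 UMIs in each library (23.1%), against 2.28% of all genes with that many. None of the 39 had an interval below 1 in both libraries, against 2.34% of all genes. In the Listeria library alone the interval also lay above 1 for Stat2 (3.17 times), Parp14 (2.72), Trim25 (2.26), Parp9 (2.02) and Slfn8 (1.85). The same held for Ddx58 (1.56 times) and for Ifi204, from 2 against 4 UMIs. The interval lay below 1 there for Ifi203 (0.55, 0.38 to 0.76), Mndal (0.70, 0.50 to 0.97) and Ifi27 (0.43, 0.24 to 0.71). In the naive library the intervals of all these genes held 1.

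For several genes widely used as markers of the response no rise was detectable in these cells, and for some the depth could not have shown one. Usp18, Mx1, Ifit3 and Ifit3b had 0 UMIs in these cells of both libraries, but they were near the floor in the other cells too. Intervals for the naive and Listeria cells reached 14.1 and 6.26 times for Usp18, 21.0 and 17.1 for Mx1 and 27.7 and 24.8 for Ifit3. Oas1a and Phf11d also had 0 UMIs, with narrower upper bounds of 2.70 and 1.47 times for Oas1a and of 5.68 and 2.68 times for Phf11d. Irf7 had 1 and 2 UMIs (upper bounds of 2.47 and 2.24 times), and Ifit2 was at 5.44 and 7.15 CPM against 6.64 and 7.33 (4.69 and 2.94 times). Bst2 was at 87.0 against 86.5 CPM in the naive library and at 52.4 against 75.8 in the Listeria library. Of the highest genes with a sequence above, Isg15, Ifit1 and Ifih1 have 3, 2 and 1 matches in their windows, and Oasl1 has none. Oas1a and Bst2, which were not among the highest, have 2 each. The part of the element in the split was not tested.

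Outside the set, the chemokine gene Cxcl10 was 21.3 and 35.9 times higher in the same cells and Cmpk2, the neighbour of Rsad2, 14.9 and 6.46 times. The stress factor gene Atf3 was 5.14 and 5.46 times higher, while Fos was 0.17 and 0.27 times the level of the other cells. These moved with the split, and their part in it was not tested.

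**Figure D4:**
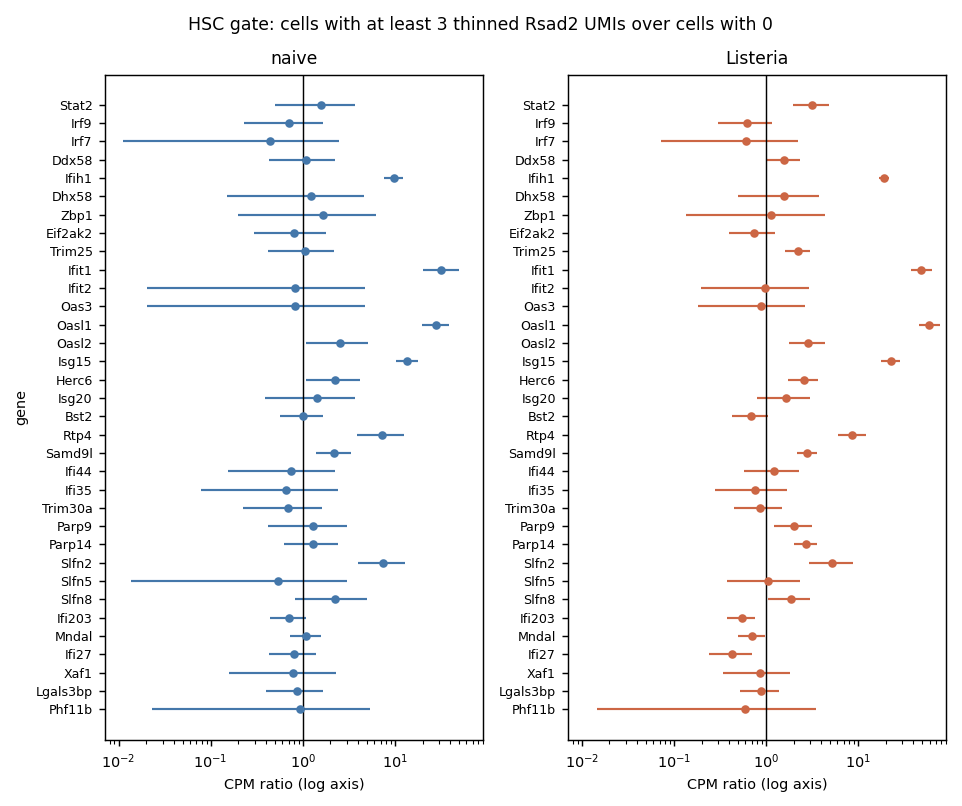
CPM in HSC-gated cells with at least 3 thinned Rsad2 UMIs divided by CPM in those with 0 (horizontal log axis, with counting intervals), in the naive (left, 24 and 1706 cells) and Listeria (right, 54 and 1583 cells) libraries for the 34 genes with a UMI in the high cells of both. Ifit1, Oasl1, Isg15 and Ifih1 lie farthest right in both panels, while Bst2, Irf9, Ifi44 and Trim30a lie near 1.

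These cells carried a large part of the UMIs of those genes. In the Listeria library the 54 cells held 57.0% of all Ifit1 UMIs of the HSC gate, 61.3% of Oasl1, 39.5% of Isg15 and 36.6% of Ifih1. In the naive library the 24 cells held 23.3%, 23.1%, 14.4% and 10.9%. Their part was small for other genes that were higher in the Listeria HSC gate, with 6.76% of Trim25, 7.42% of Herc6 and 7.72% of Parp14 UMIs in the Listeria library. Among HSC-gated cells with 0 thinned Rsad2 UMIs the log2 ratio of Ifih1 was 0.15 (−0.014 to 0.31). That of Ifit1 was 0.47 (−0.005 to 0.94), from 5.31 to 7.33 CPM, under the minimum. Oasl1 was at −0.56 (−0.97 to −0.15) and Isg15 at −0.84 (−1.11 to −0.57), the latter from 25.5 to 14.3 CPM. Trim25 at 0.43, Slfn8 at 0.60 and Slfn5 at 0.44 were close to their values in the whole gate. There 3 of 29 genes were higher and 4 lower (10.3% and 13.8%), against 21.8% and 5.22% of all genes, and the sum was at −0.016.

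Dividing the cells by Ifih1, itself 9.79 and 19.3 times higher in the cells with high Rsad2, gave a similar combination. Because of that rise the splits share cells, so the likeness was built in and is no separate support. Of HSC-gated cells with at least 3 thinned Ifih1 UMIs, 10 naive and 25 Listeria, a Rsad2 UMI was found in 4 (40%) and 19 (76%), against 6.80% and 7.45% of the rest. Isg15 was found in 6 (60%) and 15 (60%), against 6.41% and 3.93%. Irf7, Usp18 and Oas1a were found in 0 of 10 and 0 of 25, with exact upper bounds of 30.8% and 13.7%. In the rest Irf7 was found in 2.96% and 2.35%, Usp18 in 0.44% and 0.29% and Oas1a in 1.32% and 1.64%, so no difference was detectable with so few cells.

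A split by Fos, an early factor of cell activation and stress, gave other leading genes. HSC-gated cells with at least 3 thinned Fos UMIs (352 naive, 539 Listeria) summed to 1440 and 1514 CPM, against 1160 and 1144 in those with 0 (968 and 879). Over 44 genes, 14 had an interval above 1 in both libraries; 13 of these were among the 39 with at least 20 UMIs in each library (33.3%), against 14.7% of all genes with that many. Those above 1 included Ifi203 (1.56 and 2.37 times), Slfn5 (2.05 and 2.89) and Zbp1 (2.29 and 4.36). Usp18 (4.75 and 3.27) was the 1 with too few UMIs for the 39, at 8 against 5 naive and 12 against 6 Listeria UMIs. Ifit1 was the 1 gene of the set below 1 in both (2.56% of the 39, against 11.8% of all genes), at 0.30 and 0.27 times. Oasl2 was above 1 in both splits and both libraries; the overlap of the splits was not tested.

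Cells with many of the classic genes at once were few. Of 8 genes often used to mark the response (Ifit1, Ifit2, Ifit3, Usp18, Mx1, Oas2, Irf7 and Isg15, chosen after their values were seen), at least 5 were detected in 10 naive and 3 Listeria cells. Among genes that did not choose them, Cxcl10 was at 1599 CPM in these naive cells against 104 in the rest and at 1561 against 101 in the Listeria library. Rsad2 was at 859 against 32.8 CPM and at 634 against 89.5. By their selection these cells carried Ifit2 and Ifit3, at 918 and 204 CPM in the naive library, beside the 5.44 and 7.15 CPM of Ifit2 and the 0 UMIs of Ifit3 in the HSC-gated cells with high Rsad2. The 10 naive cells were spread over gates, with 3 B cells and 1 T or NK cell among them.

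Cells with a high sum were defined as those at or above 2896 CPM, which is 3 times the median of all kept cells. This is a range and not a cell type, and 163 naive and 114 Listeria cells lay within 10% of the limit. It held 303 naive cells (4.75%, 4.24% to 5.30%) and 213 Listeria cells (4.40%, 3.84% to 5.02%), and their intervals overlap. By gate it held 31.2% of naive and 21.4% of Listeria dendritic cells, 17.3% and 28.0% of neutrophils, and 4.14% and 5.78% of HSC-gated cells. Different genes led the sum in these cells: Ifi203 led in 60 naive and 44 Listeria cells, Bst2 in 46 and 9, Ifi27l2a in 40 and 9, and Ifih1 in 15 and 36. Mndal led in 39 and 28 cells and Slfn2 in 17 and 26. A high sum therefore stood for several patterns. Those led by Ifih1 and Slfn2 had the larger share in the Listeria library, and those led by Bst2 and Ifi27l2a in the naive library. The gates of these cells differed too, with HSC-gated cells 25.1% of the naive and 46.9% of the Listeria cells in this range. B cells were 19.8% and 6.10% of them and dendritic cells 9.57% and 4.23%. The part of this mix in the leading genes was not tested.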

How the data were processed

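Single-cell libraries of bone marrow HSCs were compared, 1 naive and 1 Listeria. Per the labels' protocols a droplet kit with UMIs was used, and the submitters' processing notes name Cell Ranger 3.0.2 and mm10. The authors deposited whole-number UMI counts of each gene in each barcode, without normalization. Kept cells held 78.6% of 64619150 naive and 89.4% of 43895966 Listeria UMIs. Gate limits were set after seeing the data, cells that met several lineage gates (110 and 49) were left out of the gates, 712 and 710 cells outside the lineage gates lay 1 gene short of the HSC gate, and no doublet caller was run. Counts were summed over cells and divided by their total as CPM, with exact Poisson, binomial-split or Clopper-Pearson intervals (Python 3.11.15, scipy 1.17.1). UMIs share cells, so intervals cover counting error only. On data simulated for all kept cells the ratio interval held the true value for 94.6% of 7677 unaltered genes, 96% of 100 set at 1.5-fold and 95% of 100 set at 2-fold. Those counts were drawn from a Poisson distribution, as the interval assumes. The simulation therefore checks the calculation and not how the interval holds for genes uneven between cells. Scaling alternatives used edgeR 4.0.16 and DESeq2 1.42.0 size factors only. Transcript ends were compared as 50-base words over the last 500 bases.

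The genes and lists were chosen with earlier results of these data known. Genes given in full were those with at least 100 UMIs among the 6 highest or 6 lowest ratios in all kept cells or the HSC gate, those at least 4 times higher in a gate of at least 50 cells in both libraries, the 4 most abundant and near-identical pairs; Rsad2, Fos and others outside the set were named after seeing values.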

Additional observations from a re-analysis of the deposited data

Results flagged for a closer look

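Genes of the set were compared between gates for log2 ratios (Listeria over naive library) counted as higher in 1 gate and lower in another. Such ratios met the minimum and lay past the limit used above. Their intervals also lay above 0 in 1 gate and below 0 in the other. A ratio within the limit was not listed, even if its interval left out 0. With 1 library per group each listed result is a pair of values that point in opposite directions, and the difference was not tested. Ifih1 was at 0.61 (0.48 to 0.74) in the HSC gate and at −0.87 (−1.67 to −0.13) in the lymphoid priming gate. Ifit2 was at 1.69 (0.54 to 2.89) in the lymphoid priming gate, from 12 naive and 17 Listeria UMIs of which 1 Listeria cell held 52.9%, against −1.18 (−1.80 to −0.58) in multipotent progenitors. The same Ifit2 value of 1.69 stood against −0.65 (−1.22 to −0.12) in B cells. Slfn5 was at 0.43 (0.11 to 0.76) in the HSC gate and at −0.82 (−1.52 to −0.16) in multipotent progenitors. Ifi203 was at 0.38 (0.16 to 0.61) in the lymphoid priming gate and at −0.45 (−0.72 to −0.19) in the megakaryocyte lineage.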

How the results depend on the processing

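No paired analysis was possible because each group is 1 library and the labels give no replicate numbers. For the summed log2 ratio in all kept cells, −0.11, TMM and median-ratio factors each gave −0.16 and leaving out the most abundant gene gave −0.087. In the HSC gate, where it was 0.05, TMM gave −0.046 and median-ratio factors −0.030. The cells with 0 thinned Rsad2 UMIs gave −0.016 and leaving out the most abundant gene 0.084. The 4 genes higher in all kept cells became 2 with TMM, with median-ratio factors and at 1.5-fold, 7 with the mean of per-cell CPM, and 0 at 50 CPM and with naive gate shares; the 5 lower became 2 at 50 CPM, 3 at 1.5-fold and 12 with no minimum. The 9 genes higher in the HSC gate became 5 with TMM and with median-ratio factors. They became 3 at 50 CPM, at 1.5-fold and in cells with 0 thinned Rsad2 UMIs. The 2 lower became 1 with per-cell means and at 1.5-fold, 0 at 50 CPM and 7 with no minimum. In cells with 0 thinned Rsad2 UMIs the 2 lower became 4. The cause of these changes was not tested under any setting.

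The share of cells with a high sum, 4.75% naive and 4.40% Listeria, was 4.17% and 3.78% from 5000 UMIs and 12.96% and 11.6% after thinning to 2500 UMIs, where few UMIs per cell widen the spread. Of 525 recomputed values of the 21 genes given in full, 497 stayed in their counting interval and 2 reversed. Both were of Oasl1 in the HSC gate (−0.15 with a stricter gate, −0.56 in cells with 0 thinned Rsad2 UMIs). Naive gate shares, the split by Rsad2 and the removal of barcodes kept in both libraries were chosen after seeing the data.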
